A study of Mus musculus with 15 samples.

Results

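Dark zone germinal centre B cells of high affinity were compared with dark zone cells of low affinity on 8 of the 15 arrays of a mouse spleen series. The arrays were chosen by their titles, 4 of high-affinity (DZ_high) and 4 of low-affinity dark zone cells (DZ_low), with 1 sample per array. A difference is the mean log2 value of the former minus that of the latter. Both groups consisted of SwHEL B cells, which bear a knocked-in antigen receptor for hen egg lysozyme. They carried the CD45.1 marker and were transferred into C57BL/6J mice, which carry CD45.2. Both groups shared the immunization, sheep red blood cells bearing the lysozyme mutant HEL3x, the sort on day 10, the spleen as source and the sex, female. Donor cells were taken as CD45.1+, CD45.2-, IgG1+ and CD38 low, and the dark zone as CXCR4 high and CD86 low, so the donor cells hold 1 transferred receptor specificity and the hosts keep their own lymphocytes. The labels give no age of the mice, and they do not say whether each sample came from separate mice or from pooled ones, so p-values measure only the spread between these samples. RNA was amplified from small amounts before labelling. In such bulk samples, fewer cells of a type and less RNA per cell cannot be told apart.

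In the germinal centre, dark zone cells divide and mutate their antigen receptor genes, and light zone cells take up antigen and are helped by T cells according to receptor affinity. Cells pass between the zones. Some of them leave as plasma cells, a step driven by the regulators Blimp-1 and IRF4, accompanied by a growing endoplasmic reticulum and by loss of genes that define the B cell, such as Pax5, Bcl6 and CD23.

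The sample descriptions carry an experiment code, here A to D, read as a shared experiment, and each code covers 1 high-affinity and 1 low-affinity dark zone array. Levels are log2 values from RMA, the medians per array ran from 5.57 to 5.74, and there were no detection calls, and the number of arrays limits the precision. B cell and germinal centre markers lay well above the array medians in all 8 arrays. Cd79b lay between 11.9 and 12.52, Ms4a1 between 10.52 and 11.44, and the germinal centre gene Rgs13 between 10.75 and 11.84. The low-affinity array of experiment D, DZ_low replicate 3, stood apart. Its mean correlation with the other dark zone arrays was 0.963, and those of the others were 0.973 to 0.982. The mean level of 21 neutrophil markers, centred on the 8 arrays, was 1.29 there and -0.63 to 0.36 elsewhere, and Lcn2, a neutrophil granule gene, read 8.41 against 4.96 to 6.25 in the other arrays. The levels of 15 NK cell, 20 macrophage and monocyte and 17 T cell markers were also highest there, at 0.52, 0.42 and 0.39, and that of 56 mitosis genes was lowest, at -0.67. The median difference of the 21 neutrophil markers was -0.02 with that array, with 10 above 0, and 0.23 without it, with 19 above 0. Leaving it out thus moved these markers towards high affinity. Most differences and list medians are given with and without that array.

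No gene passed the test. In limma, 0 of 19938 genes had an adjusted p under 0.05 in either direction, and the lowest adjusted p was 1. At an unadjusted p under 0.05 there were 320 genes (1.6%), 151 higher (0.757%) and 169 lower (0.848%) at high affinity. A share of 0.05 of all genes would be 997. In the fit without DZ_low replicate 3 the numbers were 289, 169 and 120. The number was 518 without DZ_low replicate 2, and with experiment as a replicate block it was 566 (2.84%) over 15 arrays and 344 (1.73%) over 8. The median size of a difference was 0.096 and its median standard error 0.169, and 17 genes differed by more than 1, 5 higher and 12 lower. Groups did not overlap for 126 genes with higher values (0.632%) and 95 with lower values (0.476%) at high affinity. All 4 experiments had the same direction for 783 genes with higher values (3.93%) and 647 with lower values (3.25%). The values below therefore describe differences, each with its standard error, and none of them is a called change.

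Among the genes of plasma cell identity, the values leaned towards high affinity. This list and the others were chosen with earlier results of these data known. Counts of their members therefore describe the values and are no test. Of 30 measured regulators and markers, 20 lay above 0, with a median of 0.13, and 6 had an unadjusted p under 0.05, all higher, where 0.757% of all genes did. Over all genes, 50.4% were above 0 with a median of 0.00. The median within experiments A to D was 0.01, 0.32, 0.28 and 0.11, so it was above 0 in 4 of 4 pairs. Over all genes the medians of those pairs were 0.021, 0.001, 0.005 and -0.069. In experiment A the list, at 0.008, was thus not above all genes. When DZ_low replicate 3 was left out the list median was 0.15, with 19 above 0, and without DZ_low replicate 1 it was 0.22. The mean level of the list ran from 0.01 to 0.17 in high-affinity arrays and from -0.20 to 0.01 in low-affinity arrays, which overlapped. Among the 10 members below 0, Cxcr3 differed by -0.31 ± 0.24, Itgb7 by -0.26 ± 0.22, Zbp1 by -0.14 ± 0.23 and Mzb1 by -0.118 ± 0.235. Without DZ_low replicate 3, Cxcr3 differed by -0.35, Itgb7 by -0.11 and Zbp1 by -0.05.

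Prdm1 encodes Blimp-1, the repressor that drives plasma cell differentiation. It read 5.04, 4.90, 4.36 and 4.99 in the high-affinity arrays of experiments A to D, and 4.16, 4.41, 4.34 and 4.42 in the low-affinity arrays. All 8 values lay below the medians of their arrays, and there were no detection calls, so expression at this level is uncertain. The difference was 0.49 ± 0.16 (unadjusted p = 0.00805 in limma, adjusted p = 1). In experiments A, B and D the high-affinity array was clearly above, and in experiment C the arrays were level, so that the groups overlapped. Xbp1, which encodes the regulator of secretory capacity, differed by 0.23 ± 0.26, higher in 3 of 4 pairs. Irf4 differed by 0.47 ± 0.24, and by 0.29 without DZ_low replicate 2. Jchain, which encodes the joining chain of secreted IgM and IgA, read 11.53, 11.24, 11.41 and 11.34 at high affinity and 11.07, 10.62, 10.96 and 9.78 at low affinity. All 4 high-affinity arrays were above all 4 low-affinity arrays. Jchain differed by 0.77 ± 0.39, or 0.49 without DZ_low replicate 3. Sdc1, the gene of the plasma cell surface marker CD138, differed by 0.25 ± 0.14, and Tnfrsf17, the gene of the survival receptor BCMA, by 0.26 ± 0.16. All 8 Tnfrsf17 values also lay below the medians of their arrays. With DZ_low replicate 3 left out, Prdm1 differed by 0.52, Xbp1 by 0.32, Irf4 by 0.56, Sdc1 by 0.22 and Tnfrsf17 by 0.26. Xbp1 depended more on other arrays, with 0.07 without DZ_high replicate 3 and 0.10 without DZ_low replicate 2.

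Pon3, a paraoxonase gene, showed one of the largest differences. It read 7.33, 7.85, 7.69 and 7.80 at high affinity and 6.91, 5.80, 7.09 and 5.63 at low affinity, without overlap. The low-affinity arrays were spread over more than 1 log2 unit and the high-affinity arrays were close together. The difference was 1.31 ± 0.32, a 2.48-fold one (unadjusted p = 0.0012 in limma, adjusted p = 1), and 1.07 without DZ_low replicate 3. Cd93, which encodes a receptor also found on long-lived plasma cells, differed by 0.74 ± 0.22 and did not overlap. Epcam, an adhesion molecule gene, differed by 0.37 ± 0.11, also without overlap but with all 8 values below the array medians. Plpp5, a lipid phosphatase gene and list member named after its values were seen, differed by 0.44 ± 0.14. Cd28, the gene of a costimulatory receptor of T cells that plasma cells also carry, differed by 0.50 ± 0.23. After removal of DZ_low replicate 3 the differences were 0.65 for Cd93, 0.38 for Epcam, 0.46 for Plpp5 and 0.50 for Cd28.

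Genes outside the lists, picked for the largest differences among those whose groups did not overlap, had differences of like size. Entpd1 encodes CD39, an enzyme that breaks down extracellular ATP. It read 5.74, 5.82, 6.86 and 6.53 at high affinity and 5.02, 4.31, 5.41 and 4.86 at low affinity. The groups did not overlap, and the high-affinity arrays of experiments C and D read highest. The difference was 1.34 ± 0.35 (unadjusted p = 0.00211 in limma, adjusted p = 1), and 1.32 without DZ_low replicate 3. Il6st, the gene of the shared receptor chain gp130, read 6.38, 6.64, 6.37 and 6.48 against 5.80, 5.61, 5.13 and 5.97, with a difference of 0.84 ± 0.20. Sub1, a transcription cofactor gene, differed by 0.91 ± 0.25, Tent5c, the gene of a poly(A) polymerase known in plasma cells, by 0.75 ± 0.21, and Prpf4, a splicing factor gene, by 0.76 ± 0.19, none with overlap. Without DZ_low replicate 3 these differences were 0.955 for Il6st, 0.795 for Sub1, 0.71 for Tent5c and 0.71 for Prpf4.

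**Figure D1:**
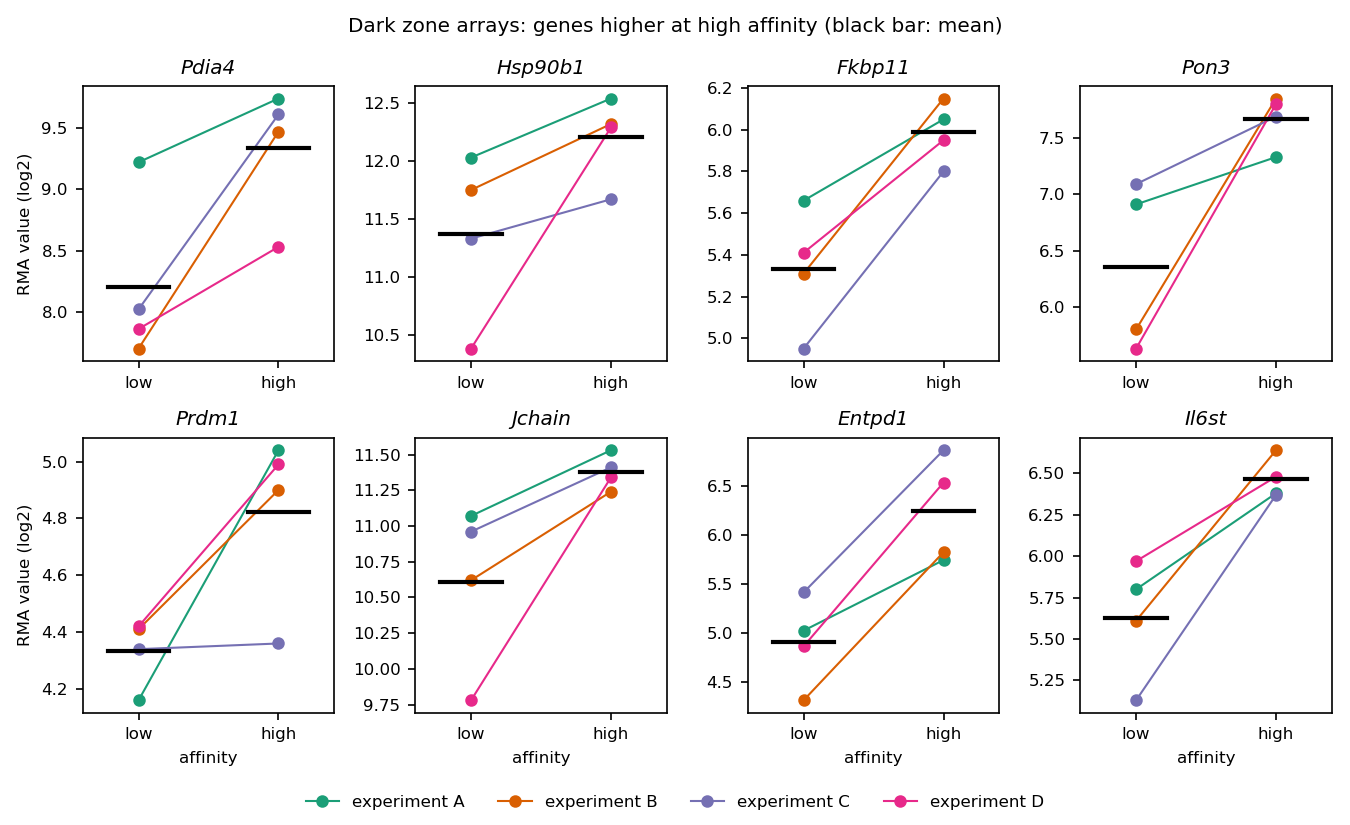
RMA values on the log2 scale (y axis) of 8 genes in low-affinity and high-affinity dark zone arrays (x axis), 1 point per array, joined within an experiment, with black bars at the group means. Each line goes up from low to high affinity, and the high-affinity value of Pon3 is at least 7.33 where the low-affinity ones reach 7.09.

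Of 28 genes of protein folding in the endoplasmic reticulum, 23 had values above 0 and the median was 0.16. Among them, 3 had an unadjusted p under 0.05, all higher, where 0.757% of all genes did. Within experiments A to D the median was 0.00, 0.43, 0.23 and 0.14, and it was 0.14 without DZ_low replicate 3 and 0.09 without DZ_high replicate 3. Pdia4, a protein disulfide isomerase gene, read 9.74, 9.47, 9.61 and 8.53 at high affinity and 9.22, 7.70, 8.02 and 7.86 at low affinity. The high-affinity arrays of experiments A to C were above every low-affinity array, and the low-affinity array of experiment A lay above the high-affinity array of experiment D. The difference was 1.14 ± 0.30, a 2.20-fold one (unadjusted p = 0.00214 in limma, adjusted p = 1). Fkbp11, a prolyl isomerase gene of secretory cells, read 6.05, 6.15, 5.80 and 5.95 against 5.66, 5.31, 4.95 and 5.41, with no overlap and a difference of 0.66 ± 0.18. Hsp90b1 encodes the chaperone GRP94 and read 12.54, 12.32, 11.67 and 12.29 against 12.03, 11.75, 11.33 and 10.38. Each pair was in the same direction, and the pair of experiment D was the most different. The difference of Hsp90b1 was 0.83 ± 0.31, and 0.50 without DZ_low replicate 3. Hspa5, the gene of the chaperone BiP, differed by 0.25 ± 0.15 and Creld2 by 0.45 ± 0.22. In the fit without DZ_low replicate 3 the differences were 1.02 for Pdia4, 0.68 for Fkbp11, 0.22 for Hspa5 and 0.60 for Creld2. Below 0 were 5 members, among them Fkbp7 at -0.22 ± 0.25, Ero1b at -0.15 ± 0.20 and Ppib at -0.04 ± 0.16. Without that array these 3 stood at -0.31, -0.20 and -0.09.

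Promoters of folding genes are known to carry the endoplasmic reticulum stress element, ERSE, and those of some secretory genes the unfolded protein response element, UPRE. The promoters of 4 genes are printed, since they belong to members with differences of different size. Each runs from 250 bases before to 50 bases after the gene start on the gene's strand, taken from RefSeq on GRCm38.p6, with capitals on the motif: Hsp90b1 at chr10:86705395-86705694 (minus strand) holds 2 ERSE, Hspa5 at chr2:34771840-34772139 (plus strand) holds 1 ERSE, Sec24d at chr3:123267246-123267545 (plus strand) holds 1 UPRE, and Pdia4 at chr6:47813463-47813762 (minus strand) holds neither.
Hsp90b1: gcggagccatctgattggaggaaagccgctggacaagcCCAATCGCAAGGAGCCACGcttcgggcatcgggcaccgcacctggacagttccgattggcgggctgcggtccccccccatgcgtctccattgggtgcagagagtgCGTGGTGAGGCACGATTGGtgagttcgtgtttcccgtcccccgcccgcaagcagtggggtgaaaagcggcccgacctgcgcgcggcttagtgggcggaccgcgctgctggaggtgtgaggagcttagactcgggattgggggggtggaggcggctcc
Hspa5: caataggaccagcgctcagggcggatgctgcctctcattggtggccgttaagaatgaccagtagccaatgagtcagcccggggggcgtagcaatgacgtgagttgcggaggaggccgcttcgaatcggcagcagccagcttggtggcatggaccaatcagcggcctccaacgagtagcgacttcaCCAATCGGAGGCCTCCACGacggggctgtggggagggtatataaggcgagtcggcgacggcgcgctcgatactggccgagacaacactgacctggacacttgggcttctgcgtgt
Sec24d: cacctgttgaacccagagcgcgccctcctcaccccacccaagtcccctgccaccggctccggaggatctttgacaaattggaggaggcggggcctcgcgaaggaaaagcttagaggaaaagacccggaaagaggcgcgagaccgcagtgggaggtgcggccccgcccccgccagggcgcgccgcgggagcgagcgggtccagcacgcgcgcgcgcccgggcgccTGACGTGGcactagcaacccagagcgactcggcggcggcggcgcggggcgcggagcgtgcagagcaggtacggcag
Pdia4: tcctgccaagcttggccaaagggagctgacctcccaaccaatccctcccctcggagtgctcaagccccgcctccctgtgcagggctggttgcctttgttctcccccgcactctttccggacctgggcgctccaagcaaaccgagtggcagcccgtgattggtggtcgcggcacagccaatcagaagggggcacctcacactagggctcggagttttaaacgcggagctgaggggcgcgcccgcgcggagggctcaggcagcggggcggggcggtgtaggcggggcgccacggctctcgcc
ERSE was searched as CCAAT and CCACG with 9 bases of any kind between them and UPRE as TGACGTGG, on both strands. The end of ERSE, CCACG, is also the start of the reverse complement of UPRE, so hits of the pair can overlap. ERSE occurred in 39 of 32851 promoters (0.119%) and UPRE in 222 (0.676%), and 8 of the 25 folding genes with a promoter held an ERSE (32%). Of 21 measured genes with an ERSE, 14 lay above 0 with a median of 0.02, and 1, Hsp90b1, had an unadjusted p under 0.05. Of 143 with a UPRE, 77 lay above 0 with a median of 0.02. These medians stood beside one of 0.00 over all genes. When DZ_low replicate 3 was left out they were 0.035 for ERSE, with 13 above 0, and 0.00 for UPRE, with 71 above 0. A match is a description of the letters in this window.

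Genes of translocation into the endoplasmic reticulum, glycosylation and export numbered 37, of which 30 had values above 0, and their median was 0.18. It was 0.08 without DZ_low replicate 3 or DZ_low replicate 2, 0.07 without DZ_high replicate 3 and 0.12 without DZ_high replicate 2. Within experiments A to D it was -0.06, 0.34, 0.09 and 0.28. Sec24d, a subunit gene of the coat of export vesicles, read 5.46, 5.49, 5.45 and 5.53 against 5.11, 5.14, 5.09 and 5.0. These groups did not overlap, and the arrays within each lay close together. All 8 values lay below the array medians. The difference was 0.40 ± 0.12 (unadjusted p = 0.00619 in limma, adjusted p = 1). Srprb, a subunit gene of the signal recognition particle receptor, differed by 0.51 ± 0.20 and Spcs3, of the signal peptidase, by 0.33 ± 0.14, both without overlap. With DZ_low replicate 3 left out, Sec24d differed by 0.37, Srprb by 0.53 and Spcs3 by 0.22. Lman1, the gene of a cargo receptor named after its values were seen, read 9.03, 9.06, 8.91 and 8.88 against 8.73, 7.92, 8.98 and 6.36. Its low value in DZ_low replicate 3 set the size: the difference was 0.97 ± 0.43, and 0.43 without that array. Below 0 were 7 members, among them Srp68 at -0.32 ± 0.25, Sec31a at -0.08 ± 0.23 and Sec11a at -0.07 ± 0.14. Without DZ_low replicate 3 these stood at -0.24, -0.01 and -0.15.

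Genes of the unfolded protein response and of degradation from the endoplasmic reticulum had a median of 0.03, with 14 of 25 above 0, and 0.03 without DZ_low replicate 3. Creb3l2, which encodes a transcription factor of secretory cells, differed by 0.77 ± 0.22 and Sel1l, of the degradation complex, by 0.53 ± 0.26. The values of Creb3l2 were dim, from 3.92 to 5.60. Manf, a secreted stress-responsive gene, differed by 0.35 ± 0.18. The members with the lowest p among those below 0 were Chac1, Ddit3 and Sesn2. Chac1, a glutathione-degrading enzyme gene, read 6.04, 5.90, 5.70 and 5.91 against 6.05, 6.32, 6.52 and 6.87. Its difference was -0.55 ± 0.18, with no overlap between groups. Ddit3, which encodes CHOP, differed by -0.41 ± 0.21 and Sesn2 by -0.33 ± 0.19, lower in 4 of 4 pairs each, and Atf4, the gene of the transcription factor upstream of CHOP, differed by -0.23 ± 0.13. Other targets of ATF4 in the list lay near or above 0. Asns stood at 0.11, Ppp1r15a at 0.13, Trib3 at 0.00 and Nupr1 at 0.01. Slc3a2, the gene of an amino acid transporter chain, differed by -0.56 ± 0.23 and Bcat1, the gene of a branched-chain aminotransferase, by 0.33 ± 0.15. After removal of DZ_low replicate 3 the differences were 0.80 for Creb3l2, 0.53 for Sel1l, 0.27 for Manf, -0.41 for Chac1, -0.45 for Ddit3, -0.26 for Sesn2, -0.19 for Atf4, -0.49 for Slc3a2 and 0.30 for Bcat1.

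Genes that define B cells leaned the other way. Of 35 such genes, 34 lay below 0, with a median of -0.23, and 3 had an unadjusted p under 0.05, all lower, where 0.848% of all genes did. The median within experiments A to D was -0.35, -0.07, -0.14 and -0.30, and it was -0.16 without DZ_low replicate 3, with 4 above 0, and -0.12 without DZ_high replicate 1. Levels per array were -0.36 to 0.09 at high and -0.14 to 0.30 at low affinity and overlapped. The 30 genes of the light zone program had a median of -0.10, with 22 below 0. It was -0.36, 0.03, 0.04 and -0.22 in experiments A to D, -0.09 without DZ_low replicate 3, -0.04 without DZ_high replicate 1, and -0.19 without DZ_low replicate 2 or DZ_high replicate 3. Whether light zone cells in the sort took part in these differences was not tested.

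Fcer2a, which encodes the IgE receptor CD23, had the lowest unadjusted p of this comparison. It read 7.98, 8.40, 8.44 and 8.26 at high affinity and 9.22, 9.23, 9.70 and 8.90 at low affinity. Every low-affinity array was above every high-affinity array. The difference was -0.99 ± 0.18, a 1.99-fold one (unadjusted p = 7.77e-05 in limma, adjusted p = 1). It was -1.11 without DZ_low replicate 3, with an adjusted p of 0.687 in limma, and with experiment as a block over 15 arrays the adjusted p was 0.303. Cd72, the gene of an inhibitory coreceptor, read 7.60, 8.53, 8.36 and 7.87 against 8.98, 8.61, 9.33 and 8.53, a difference of -0.77 ± 0.24. Its groups did not overlap, but only just, as the highest high-affinity and lowest low-affinity values both round to 8.53. The pair of experiment B differed by -0.08. Ikzf3, the gene of the B cell factor Aiolos, differed by -0.26 ± 0.10, lower in 4 of 4 pairs. Pax5 differed by -0.27 ± 0.25 and Bach2, which restrains plasma cell differentiation, by -0.44 ± 0.27, each higher in 1 of 4 pairs. Bcl6, the repressor that maintains the germinal centre state, differed by -0.37 ± 0.19, lower in 4 of 4 pairs. Without DZ_low replicate 3 these were -0.88 for Cd72, -0.255 for Ikzf3, -0.265 for Pax5, -0.40 for Bach2 and -0.30 for Bcl6. Without DZ_high replicate 1, Bach2 differed by -0.24 and Bcl6 by -0.23.

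Cd86, whose protein was used for the sort, was lower at high affinity within the dark zone gate. It read 9.41, 9.58, 9.27 and 10.00 at high affinity and 10.28, 10.00, 10.41 and 10.12 at low affinity. The arrays of experiment D were nearly level, and those of the other experiments were apart. The difference was -0.64 ± 0.15 (unadjusted p = 0.000892 in limma, adjusted p = 1), and -0.67 without DZ_low replicate 3. Cxcr4, the other sort marker, differed by -0.12 ± 0.21, and by 0.01 without DZ_low replicate 3. Among 31 genes of T cell contact, 20 lay below 0 with a median of -0.13, below 0 in 4 of 4 pairs and with 4 genes at an unadjusted p under 0.05, all lower, where 0.848% of all genes were. The median was -0.12 without DZ_low replicate 3, -0.05 without DZ_high replicate 1 and -0.04 without DZ_low replicate 4. Icosl, the gene of the ligand of the T cell receptor ICOS, read 7.23, 7.24, 7.49 and 7.26 against 7.79, 7.58, 8.26 and 8.38. Its groups did not overlap and the difference was -0.70 ± 0.25. Il4ra, the gene of the interleukin 4 receptor chain, differed by -0.81 ± 0.37 and Icam2, an adhesion ligand gene, by -0.32 ± 0.12, each lower in 4 of 4 pairs. Cd2, an adhesion molecule gene that stands in the list of T cell markers, differed by -0.61 ± 0.19 without overlap. In the fit without DZ_low replicate 3 these were -0.58 for Icosl, -0.55 for Il4ra, -0.29 for Icam2 and -0.69 for Cd2. The median of the 17 T cell markers was -0.09, and 0.02 without DZ_low replicate 3, with 5 and 10 of them above 0, and their part in the difference of Cd2 was not tested.

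The median over 27 genes of naive and marginal zone cells was -0.17, with 18 below 0, below 0 in 4 of 4 pairs, and -0.08 without DZ_low replicate 3. Fcer2a and Il4ra were its members at an unadjusted p under 0.05. Genes of memory and quiescence had a median of -0.09, with 25 of 37 below 0, -0.04 without DZ_low replicate 3 and -0.02 without DZ_high replicate 1. Among them, Pecam1, an adhesion molecule gene, differed by -0.58 ± 0.19 and Satb1, a chromatin organiser gene, by -0.51 ± 0.21, each lower in 4 of 4 pairs. Outside the lists, Gimap3, a GTPase gene of lymphocytes picked for its large difference without overlap, read 5.81, 6.55, 6.78 and 7.0 against 8.07, 7.32, 7.55 and 7.37. The groups did not overlap, and the difference was -1.04 ± 0.27 (unadjusted p = 0.0018 in limma, adjusted p = 1). When DZ_low replicate 3 was left out, Pecam1 differed by -0.62, Satb1 by -0.53 and Gimap3 by -1.11. Genes of MHC class II presentation had a median of -0.19 with 18 of 20 below 0. Within experiments A to D it was -0.30, 0.03, -0.01 and -0.65, and without DZ_low replicate 3 it was -0.08.

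**Figure D2:**
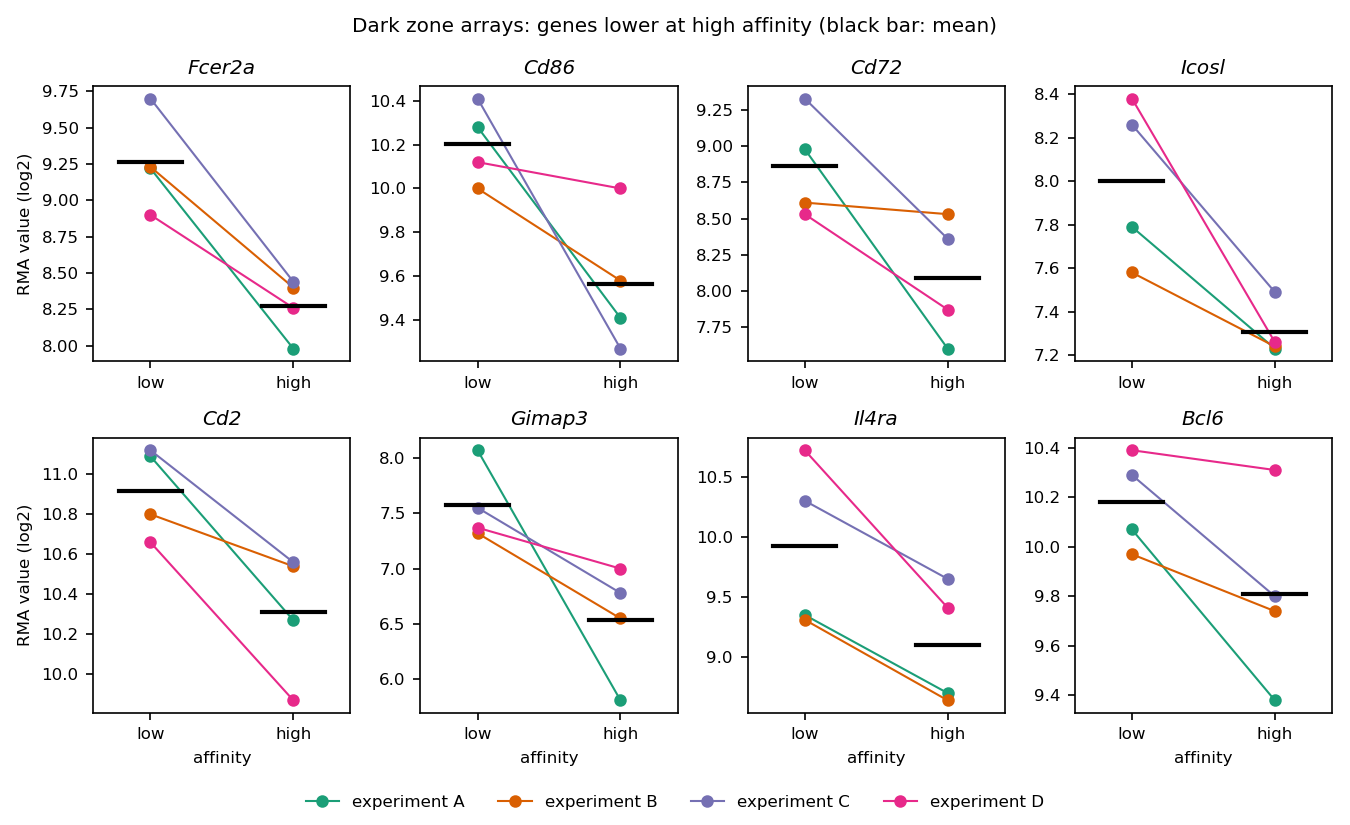
RMA values on the log2 scale (y axis) of 8 genes in low-affinity and high-affinity dark zone arrays (x axis), 1 point per array, joined within an experiment, with black bars at the group means. Each line goes down from low to high affinity, and for Fcer2a the highest high-affinity array (8.44) is below the lowest low-affinity array (8.90).

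Genes of DNA replication leaned towards high affinity, and those of mitosis did so in some experiments. Among 57 genes that act in G1/S or in DNA replication, 53 had values above 0. Their median was 0.28, with 0.05, 0.60, 0.26 and 0.11 in experiments A to D, and 0.21 without DZ_low replicate 3, with 53 above 0. Pole2, a subunit gene of DNA polymerase epsilon, read 8.12, 8.16, 8.75 and 8.17 against 8.14, 7.72, 7.82 and 7.15, a difference of 0.59 ± 0.27. The arrays of experiment A were level and the others were apart. Mcm10, of the replication fork, differed by 0.53 ± 0.25, higher in 4 of 4 pairs, and Rpa2, of the single-strand binding complex, by 0.46 ± 0.18. The 56 genes of G2/M and mitosis had a median of 0.16, with 48 above 0. It was -0.13, 0.39, -0.06 and 0.34 in experiments A to D, so 2 of 4 pairs were below 0. It was 0.00 without DZ_low replicate 3, with 29 above 0, and 0.06 without DZ_high replicate 2. Mki67, the proliferation marker gene, differed by 0.17 ± 0.28. MYC targets had a median of 0.16, with -0.07, 0.43, -0.03 and 0.04 in experiments A to D and 0.04 without DZ_low replicate 3. Myc itself differed by 0.27 ± 0.29, by 0.06 without DZ_high replicate 3 and by 0.08 without DZ_low replicate 2. With DZ_low replicate 3 left out, Pole2 and Mcm10 differed by 0.41 each, Rpa2 by 0.50, Mki67 by 0.15 and Myc by 0.29. Genes of cholesterol biosynthesis had a median of 0.22, with 17 of 21 above 0, and 0.15 without DZ_low replicate 3.

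**Figure D3:**
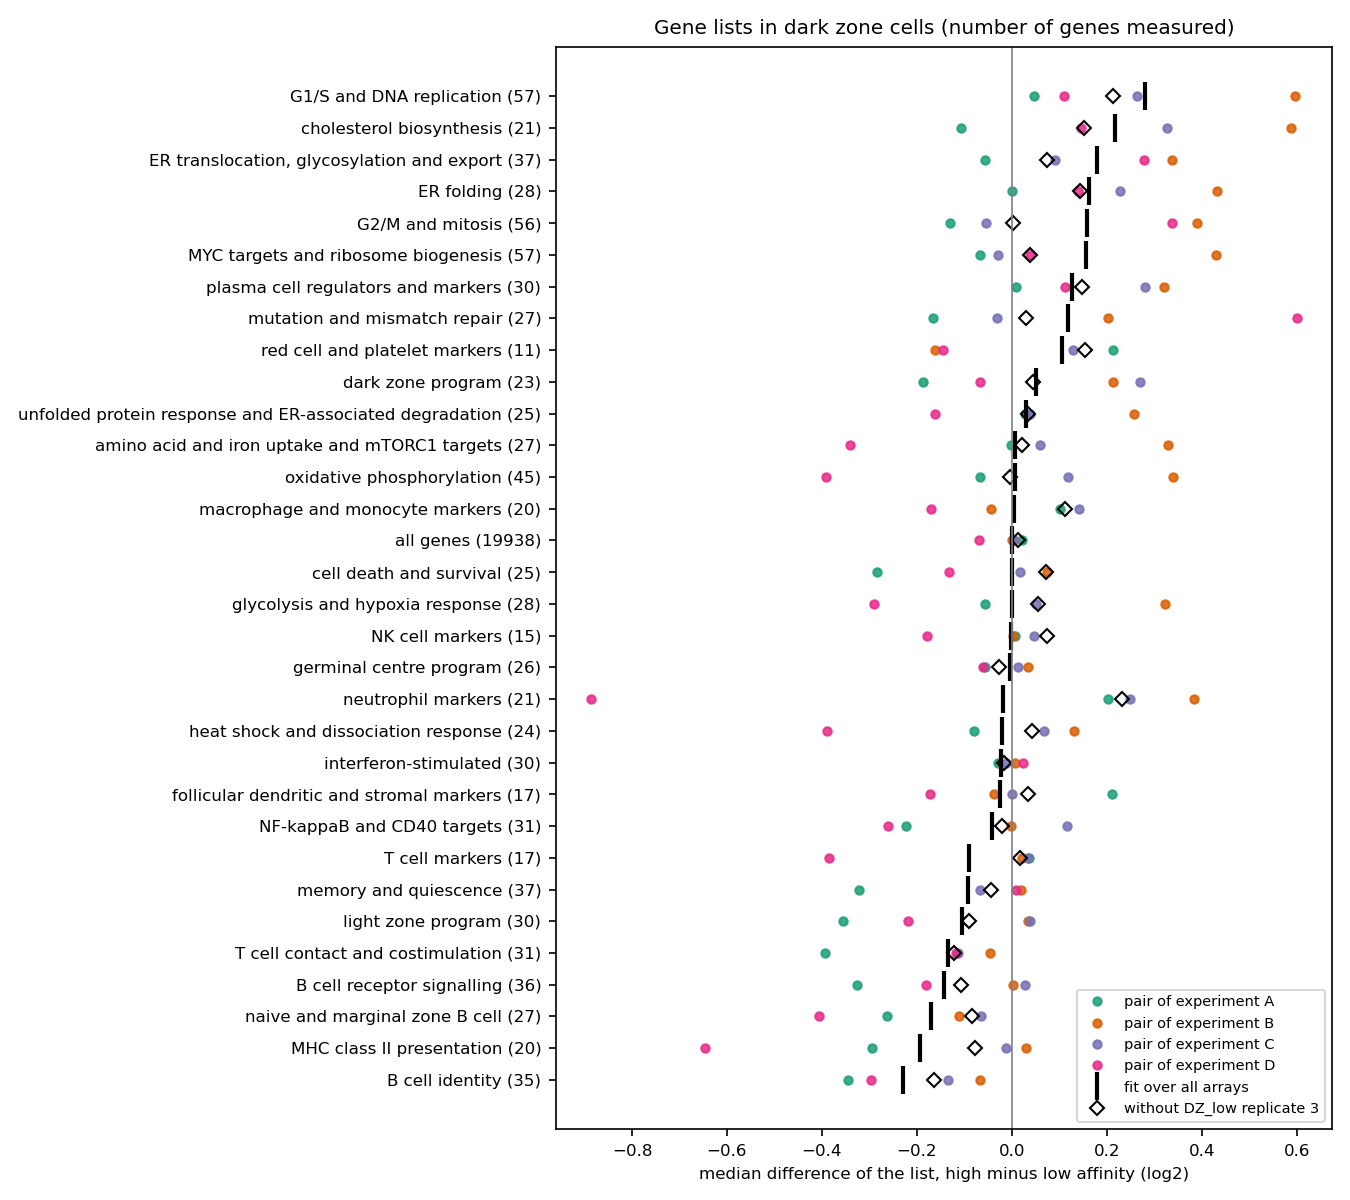
Median difference of each gene list, high minus low affinity on the log2 scale (x axis), with the number of genes measured in brackets (y axis). Black bars are the fit over all arrays, coloured points the pair of each experiment, and diamonds the fit without DZ_low replicate 3, which moves G2/M from 0.16 to 0.00.

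**Figure D4:**
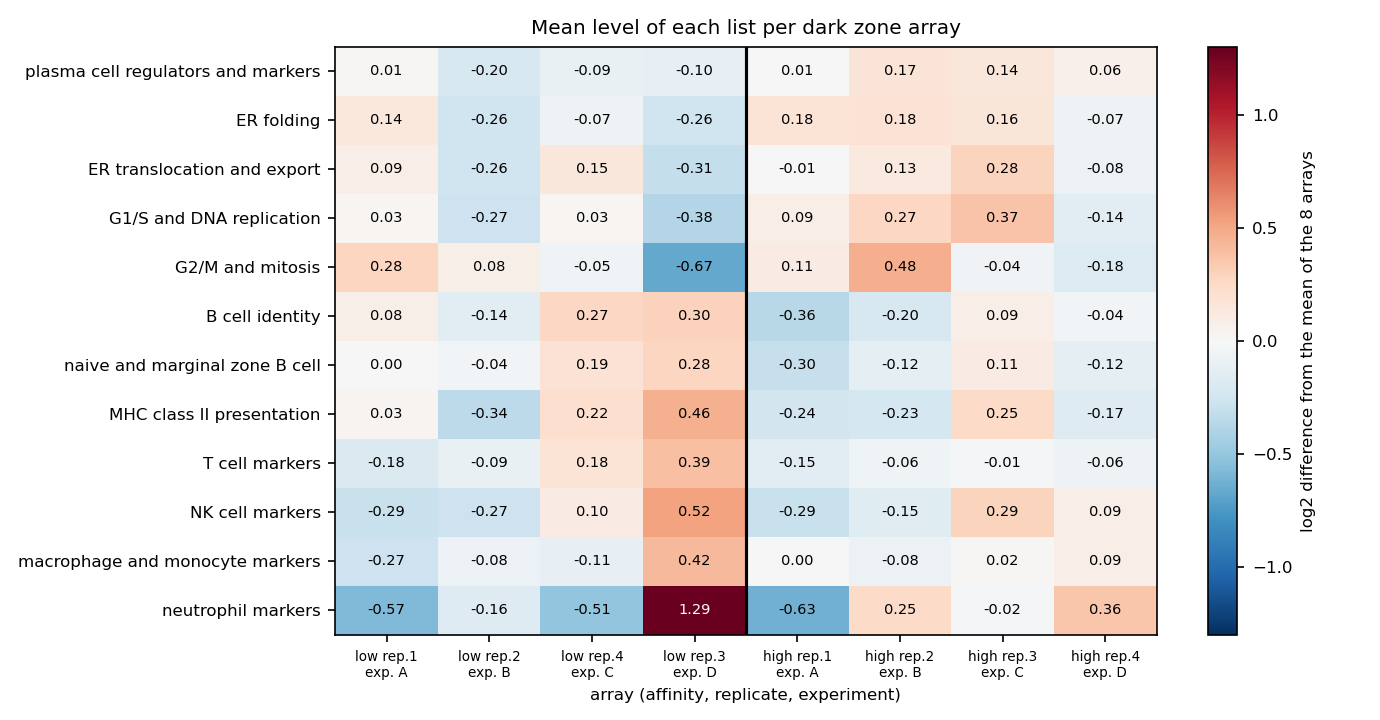
Mean level of 12 lists (rows) in each of the 8 dark zone arrays (columns), as the log2 difference from the mean of those arrays. The cell for neutrophil markers in the low-affinity array of experiment D reads 1.29, and no list separates the 4 left columns from the 4 right ones.

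The light zone arrays, 3 of high and 4 of low affinity from the same experiments, gave a comparison that shares no array with the dark zone. LZ_low replicate 3, from experiment D, stood apart there, with a neutrophil marker level of 2.25 against -0.89 to 0.11 in the other light zone arrays. Values without it were chosen after seeing the data. Of the 126 genes with higher values and no overlap in the dark zone, 71 differed in the same direction in the light zone (56.3%), where 56.1% of all genes did. Of the 95 with lower values, 70 did (73.7%). Without LZ_low replicate 3 these shares were 65.1%, 62.1% and, over all genes, 54.3%. Entpd1 differed by -0.32 ± 0.38 in the light zone, or 0.04 without LZ_low replicate 3, and the difference between zones was 1.66 ± 0.52 (unadjusted p = 0.00683 in limma, adjusted p = 1). Il6st differed by -0.34 ± 0.22 there, with a difference between zones of 1.18 ± 0.30 (unadjusted p = 0.00167 in limma, adjusted p = 1). For Pdia4 the light zone value was -0.07 ± 0.33 and the difference between zones 1.20 ± 0.44 (unadjusted p = 0.0172 in limma, adjusted p = 1). Without LZ_low replicate 3 the differences between zones were 1.29 for Entpd1, 1.03 for Il6st and 1.21 for Pdia4. Jchain was 0.87 ± 0.43 in the light zone and 0.41 without LZ_low replicate 3. Fcer2a was -0.65 ± 0.19 there and -0.80 without that array. Limma called 0 of 19938 genes for the difference between zones, with 266 at an unadjusted p under 0.05. The plasma cell list had a median of -0.02 in the light zone (-0.04 without LZ_low replicate 3), and the B cell identity list one of -0.29 (-0.31). The endoplasmic reticulum folding list, at 0.16 in the dark zone, had a light zone median of -0.02 (-0.03). That of the unfolded protein response list was -0.11 (-0.05), against 0.03 in the dark zone. The lists that follow had the same direction in both zones. Light zone medians were 0.32 (0.23) for G1/S, 0.68 (0.40) for G2/M and 0.34 (0.26) for MYC targets. They were -0.35 (-0.27) for MHC class II, -0.26 (-0.22) for T cell contact, -0.44 (-0.36) for naive and -0.515 (-0.37) for memory genes.

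**Figure D5:**
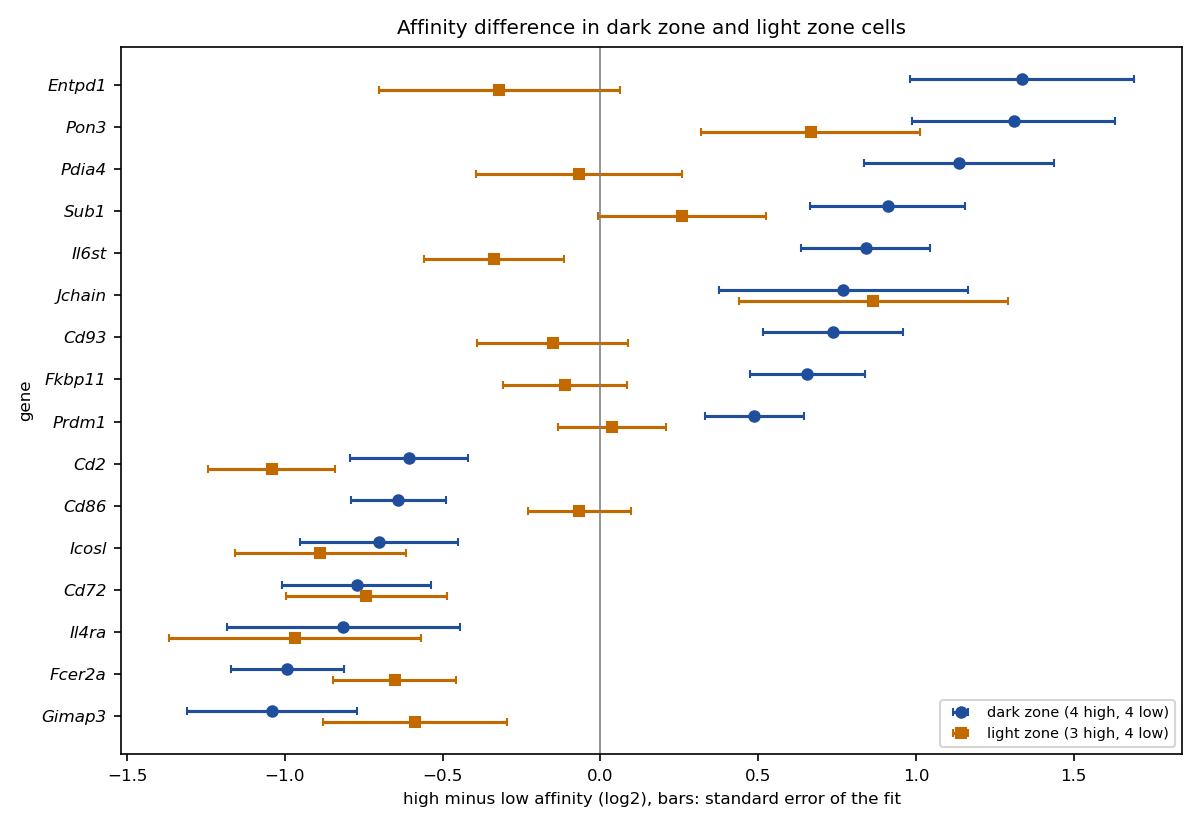
Difference between high and low affinity on the log2 scale (x axis) for 16 genes (y axis) in dark zone and light zone cells, with bars for the standard error of the fit. Entpd1 is at 1.34 in the dark zone and at -0.32 in the light zone (0.04 without LZ_low replicate 3), and Fcer2a is at -0.99 and -0.65.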

How the data were processed

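The 15 samples were sorted germinal centre B cells, and their amplified RNA was measured on whole-transcript arrays, per the labels' protocols. The authors deposited log2 values of 28853 probe sets, made with RMA (background correction, quantile normalization, probe summary), and the submitters' processing notes name build mm8; which software version was used is not given in the sources used here. Differences of dim probe sets are compressed by RMA. Probe sets naming 1 gene (21789) were kept, and for the 999 genes with several the one with the highest mean, which left 19938 genes without a filter on dim ones.

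The 4 groups of all 15 arrays entered 1 linear model in limma 3.58.1 (R 4.3.3), with 11 degrees of freedom left for the spread. Adjusted p-values follow Benjamini and Hochberg over all genes. Lists are described by counts and medians, with no test of a list. Of 1004 list entries, 74 were not matched. Named genes were the 12 largest differences per direction among genes whose groups did not overlap, in each list up to 3 genes of lowest p per direction, and 26 chosen genes, 24 of them measured. Not every gene picked by this rule is described. Other named genes were chosen after their values were seen. The comparison, its lists and its named-gene rule were chosen with earlier results of these data known. Promoter sequences came from RefSeq (GRCm38.p6). Figures used matplotlib 3.10.9.

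Pairing was read from the experiment code of the descriptions. Deviations of same-experiment dark zone arrays correlated at -0.059, 0.133, 0.273 and -0.097 (A to D), so not every pair was above 0.1. The code was used as a block in alternatives only, and as a random block its correlation was 0.175. Standard errors and p-values given without a block thus leave out the pairing. With experiment as a replicate block over 15 arrays, the unadjusted p in limma went from 0.0447 to 0.000117 for Il4ra and from 0.000892 to 0.0022 for Cd86. Alternatives used another block, threshold, normalization, filter on dim genes or variance prior, weighted the arrays, averaged probe sets, or left out arrays. The fit was tested on simulated data.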

Additional observations from a re-analysis of the deposited data

Results flagged for a closer look

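An array is listed here when its gap to the nearest array of its group takes up most of the group's range. Of 214 groups of 4 arrays examined, 9 were listed, and chance gives about 1 in 20, or 10.7. The level of endoplasmic reticulum folding genes was -0.068 in DZ_high replicate 4, and 0.16 to 0.18 in the other high-affinity arrays. That of the unfolded protein response was 0.18 in DZ_high replicate 3 and -0.03 to -0.02 in the others. MHC class II genes stood at 0.25 in DZ_high replicate 3, against -0.24 to -0.17. Glycolysis genes stood at -0.17 in DZ_low replicate 2, against 0.05 to 0.08. DZ_high replicate 3 also differed in Icosl at 7.49 (others 7.23 to 7.26), in Zfp740, a zinc finger gene, at 7.13 (others 7.91 to 8.06) and in Pole2 at 8.75 (others 8.12 to 8.17). Tnfrsf13b, the gene of the receptor TACI, read 7.49 in DZ_low replicate 1 and 6.96 to 7.05 in the others. Lcn2 read 8.41 in DZ_low replicate 3 and 4.96 to 5.25 in the others.

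The plasma cell list had a median of 0.13 in the dark zone, above 0 in 4 of 4 pairs. In experiment A its median, 0.008, was below that of all genes, 0.021. In the light zone pairs of experiments A to C the list median was -0.08, -0.07 and -0.06, below 0 in each, and experiment D had no such pair. The light zone fit had 14 of 30 members above 0, among them Jchain (0.87), Pon3 (0.67), Irf4 (0.51) and Tnfrsf17 (0.28). Without LZ_low replicate 3, Jchain stood at 0.415. The difference between zones was not tested for the list.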

How the results depend on the processing

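Over 20 alternatives, 0 genes had an adjusted p under 0.05 in limma, and the lowest adjusted p ranged from 0.142 to 1. Of the 76 genes followed, 71 kept their direction, as did the medians of 18 of 31 lists. The number of genes at an unadjusted p under 0.05, 320 as reported, was 535 with array weights, 481 with experiment as a random block and 275 to 518 when 1 array was left out, the highest without DZ_low replicate 2. With experiment as a replicate block it was 566 over 15 arrays and 344 over the 8 dark zone arrays, and with the title number as the block 365. The block changed no call. Values that turned their sign, from ones mostly near 0, were Tnfrsf13b (0.03 as reported, -0.008 with array weights, -0.001 to -0.026 without DZ_high replicate 2 or 3 or DZ_low replicate 2 or 3, and at most 0.148, without DZ_low replicate 1), Foxo1 (-0.13, and from -0.254 without DZ_low replicate 3 to 0.025 without DZ_low replicate 4) and Cxcr4 (-0.12, from -0.314 without DZ_high replicate 3 to 0.007 without DZ_low replicate 3, and 0.044 without both arrays of experiment D). S1pr2 (-0.04) was 0.02 to 0.13 without DZ_high replicate 1 or 2 or DZ_low replicate 3 or 4, -0.177 without DZ_high replicate 3, and 0.13 without both arrays of experiment D. Lcn2 (-0.24) was 0.21 with array weights, 0.59 without DZ_low replicate 3, -0.564 without DZ_low replicate 1 and 0.39 without both arrays of experiment D. In the light zone, Entpd1 turned from -0.32 to 0.044 and Fkbp11 from -0.11 to 0.023 without LZ_low replicate 3, an alternative chosen after seeing the data. The cause of these changes was not tested. The number of arrays limits the precision, with a median standard error of 0.169 on the log2 scale.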

Other observations

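Oxidative phosphorylation genes had a median of 0.01, with 24 of 45 above 0, but of -0.07, 0.34, 0.12 and -0.39 in experiments A to D. Glycolysis with the hypoxia response had one of 0.00, with -0.06, 0.32, 0.05 and -0.29 in those experiments, so for both lists the pairs went both ways. After removal of DZ_low replicate 3 these medians were 0.00 and 0.06. Interferon-stimulated genes had a median of -0.02, with 12 of 30 above 0, and Xaf1, an interferon-induced gene of apoptosis, differed by -0.66 ± 0.26, or -0.77 without DZ_low replicate 3. The interferon median was -0.02 without that array too. Genes of mutation and mismatch repair had a median of 0.12, but 0.03 without it. Polh, the gene of a translesion polymerase, differed by 0.21 ± 0.23, and by 0.05 without the same array. The 26 genes of the germinal centre program had a median of 0.00 with 13 above 0, and -0.03 without DZ_low replicate 3. The 23 genes of the dark zone program had one of 0.05 with 16 above 0, and -0.19, 0.21, 0.27 and -0.07 in experiments A to D. That median was 0.04 without DZ_low replicate 3, -0.08 without DZ_high replicate 3, -0.05 without DZ_low replicate 2 and 0.21 without DZ_high replicate 4, so its sign turned with the array left out.

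Ccnd2, the cyclin D2 gene, differed by 0.36 ± 0.28, higher in 3 of 4 pairs, and Ccnd3, the cyclin D3 gene, by -0.16 ± 0.19, higher in 1 of 4 pairs. Without DZ_low replicate 3 they differed by 0.39 and -0.05, and Ccnd2 by 0.22 without DZ_high replicate 1. Hhex, a transcription factor gene of B cell memory, differed by -0.55 ± 0.34 and was higher in 2 of 4 pairs. Zfp36, the gene of an mRNA decay factor, differed by -0.50 ± 0.22, lower in 4 of 4 pairs. In the fit without DZ_low replicate 3 these were -0.71 and -0.31. Further genes without overlap between the groups were Gca at 0.95 ± 0.33, Rdx at 0.67 ± 0.20 and Ltn1 at 0.60 ± 0.53, higher at high affinity. Lower there were Tcp11l2 at -0.86 ± 0.30, Pstpip1 at -0.80 ± 0.32, Fbxl20 at -0.70 ± 0.29, Rab31 at -0.60 ± 0.32 and Zfp652 at -0.56 ± 0.21. When DZ_low replicate 3 was left out these 8 genes kept their direction, from 0.475 for Rdx to 1.02 for Gca and from -0.98 for Tcp11l2 to -0.59 for Pstpip1. None of these genes passed the test in limma (adjusted p = 1 for each).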
